A study of Homo sapiens with 6 samples.

Results

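The matrix metalloproteinases (MMPs), the ADAM and ADAMTS metalloproteinases and their tissue inhibitors, the TIMPs, were followed as 1 family in 2 human lung cancer cell lines. Members were taken by gene symbol: MMP, ADAM or ADAMTS with a number, with an A or B suffix allowed for MMPs, and TIMP1 to TIMP4. This gave 69 of the 27968 genes in the tables, made up of 24 MMPs, 22 ADAMs, 19 ADAMTSs and 4 TIMPs. RNA was sequenced from 3 independent cultures of H23 and 3 of A549, both established lines used as models of lung adenocarcinoma. The medium was RPMI 1640 for H23 and DMEM for A549, both with fetal bovine serum. No culture was treated, total RNA was taken near confluence, and all libraries were stranded and depleted of ribosomal RNA. Line and medium changed together, so their parts in any difference cannot be told apart.

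These enzymes share a zinc-dependent catalytic domain. MMPs cut collagens, laminins and other matrix proteins, and most are secreted while the membrane-type members stay at the cell surface. ADAMs are membrane proteins, and the active ones release the outer parts of growth factors, receptors and adhesion molecules, the step called shedding. ADAMTSs are secreted and act on proteoglycans, procollagens and other matrix proteins, and TIMPs bind the active sites of these enzymes and block them. In lung tumours the family is known for its part in invasion and in the release of ligands of the EGF receptor. RNA level is measured here, not protein or activity, and both depend on later steps such as removal of the prodomain.

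Estimated counts summed to between 29395795 and 42421642 in the H23 libraries and between 23399562 and 25348083 in the A549 libraries. H23 replicate 1 stood apart, with a Spearman correlation of 0.977 to each of the other H23 libraries, against 0.998 for every other pair within a line. Genes under 300 bases took 29.6% to 33.4% of the length-scaled abundance TPM in A549 and 0.125% to 0.262% in H23, which lowers the TPM of every other gene in A549. For that reason TPM is used to compare genes within a library. The lines are compared by TMM-normalised read counts scaled to depth (CPM) and log2 folds of A549 over H23. On log2(TPM + 1) the median of all genes lay at -0.41, against -0.03 for the count-based folds. All 6 epithelial markers averaged at least 1 TPM in both lines. Of the 7 lung epithelial markers, SFTPA1 and SCGB1A1 had 0 counts in both lines, and the list summed to 3.31 to 4 TPM in H23 and 0.700 to 0.910 in A549. NKX2-1, a lung lineage factor of this list, had 320 counts in H23 and 0 in A549. The 10 fibroblast markers summed to 14.6 to 15.5 TPM in H23 and 14.5 to 17.7 in A549, with DCN at 0 counts in both. Within that list THY1 had 0 counts in H23 and 930 in A549, while COL1A1 and LUM were higher in H23 (log2 -1.44 and -1.28). The 10 leukocyte markers summed to 7.74 to 15.01 and 6.87 to 7.90 TPM, with CD3E, MS4A1 and FCGR3B at 0 counts in both and CD68, CD14 and ITGAM at means of 6.87, 3.53 and 1.46 TPM in H23 and 3.69, 2.76 and 0.987 TPM in A549. The 6 endothelial markers summed to at most 0.570 TPM in either line. In bulk RNA, fewer cells that express a gene and less RNA per cell cannot be told apart.

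Promoters are shown first for members of both extremes. The reason is that 3 of them lie in 1 gene cluster and match the same pair of short motif patterns although their RNA levels differ widely. RefSeq promoters of GRCh38.p14 were matched for 39 of the 69 members, and the 250 bases before each start were searched for 3 motifs on both strands. MMP1, MMP2, MMP3, MMP9, MMP12 and MMP13 were among the members not matched, so their promoters were not searched. TGANTCA covers the site of AP-1, the FOS and JUN factor long associated with MMP genes. Its N stands for any base, so a match need not be an AP-1 site. TATAAA is the core of a TATA box. GGGCGG is a GC box. No motif of the 3 contains another. The stretches below read 5′ to 3′ on the strand of the gene, all on the minus strand, and capitals mark the motifs. They are MMP7 at chr11:102530748-102530997, MMP10 at chr11:102780629-102780878, MMP20 at chr11:102625333-102625582 and ADAM10 at chr15:58749708-58749957, the last as an example of a promoter rich in CpG.

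MMP7: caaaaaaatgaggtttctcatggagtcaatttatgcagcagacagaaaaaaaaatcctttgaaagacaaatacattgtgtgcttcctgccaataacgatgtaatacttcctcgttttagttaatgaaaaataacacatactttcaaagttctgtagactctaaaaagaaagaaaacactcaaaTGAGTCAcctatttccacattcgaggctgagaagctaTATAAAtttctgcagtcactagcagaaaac

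MMP10: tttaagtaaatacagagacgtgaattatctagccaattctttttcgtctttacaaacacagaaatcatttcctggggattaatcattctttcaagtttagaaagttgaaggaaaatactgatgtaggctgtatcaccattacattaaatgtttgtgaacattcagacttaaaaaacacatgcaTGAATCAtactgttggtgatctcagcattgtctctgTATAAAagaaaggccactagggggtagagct

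MMP20: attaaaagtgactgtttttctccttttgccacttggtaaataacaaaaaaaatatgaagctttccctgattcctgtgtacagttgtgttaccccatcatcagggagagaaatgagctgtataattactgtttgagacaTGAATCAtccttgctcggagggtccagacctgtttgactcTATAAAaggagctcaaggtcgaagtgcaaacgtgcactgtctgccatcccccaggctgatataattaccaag

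ADAM10: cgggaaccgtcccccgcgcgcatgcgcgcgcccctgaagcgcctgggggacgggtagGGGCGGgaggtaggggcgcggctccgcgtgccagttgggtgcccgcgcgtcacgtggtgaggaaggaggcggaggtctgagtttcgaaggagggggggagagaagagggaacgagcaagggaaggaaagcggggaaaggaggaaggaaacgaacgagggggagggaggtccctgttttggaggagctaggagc

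MMP7 and MMP10 held TGANTCA at the same distance, 67 bases before the start, with TATAAA at 30 and 31 bases. The match read TGAGTCA in MMP7 and TGAATCA in MMP10. MMP20, the enamel protease, held both motifs too, the first again as TGAATCA, at 112 and 72 bases, and had 1 count over all 6 libraries. ADAM10 had neither motif and 25 CpG dinucleotides, against 3 in MMP7, 2 in MMP10 and 3 in MMP20. TGANTCA was found in 4 of the 39 member promoters (10.3%), those of MMP7, MMP10, MMP20 and ADAMTS12, and in 6.60% of all 27305 promoters in the table. TATAAA stood in 7 of 39 (17.9%, against 11.1% of all) and 6 of these 7 were MMPs. GGGCGG stood in 26 of 39 (66.7%, against 42.3% of all), in 11 of 12 ADAMTS promoters and 5 of 12 MMP promoters. The 21 matched members whose TPM averaged at least 1 in a line had a median GC content of 73.6% and an observed-to-expected CpG ratio of 0.724. For the 11 members under 0.1 TPM in both lines these medians were 41.6% and 0.277. The 7 members between these limits had 73.6% and 0.802, as high as the members at 1 TPM or more. Over all promoters the medians were 58% and 0.556. A motif match describes the letters in the window and does not show binding.

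The family was unevenly expressed. By deposited TPM, 23 members averaged at least 1 in H23 and 19 in A549, with 12 in both. After TPM was rescaled without genes under 300 bases the order turned, with 23 members in H23 and 24 in A549. The 13 that were then in both made up 56.5% of the H23 members and 54.2% of the A549 members. ADAM2, ADAM6, ADAM7, ADAM29, ADAM30, ADAMTS19, ADAMTS20, MMP12, MMP13, MMP26 and MMP27 had 0 counts in all 6 libraries. Over a line, 0 counts allow up to 3 counts, a limit that covers counting error only.

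**Figure D1:**
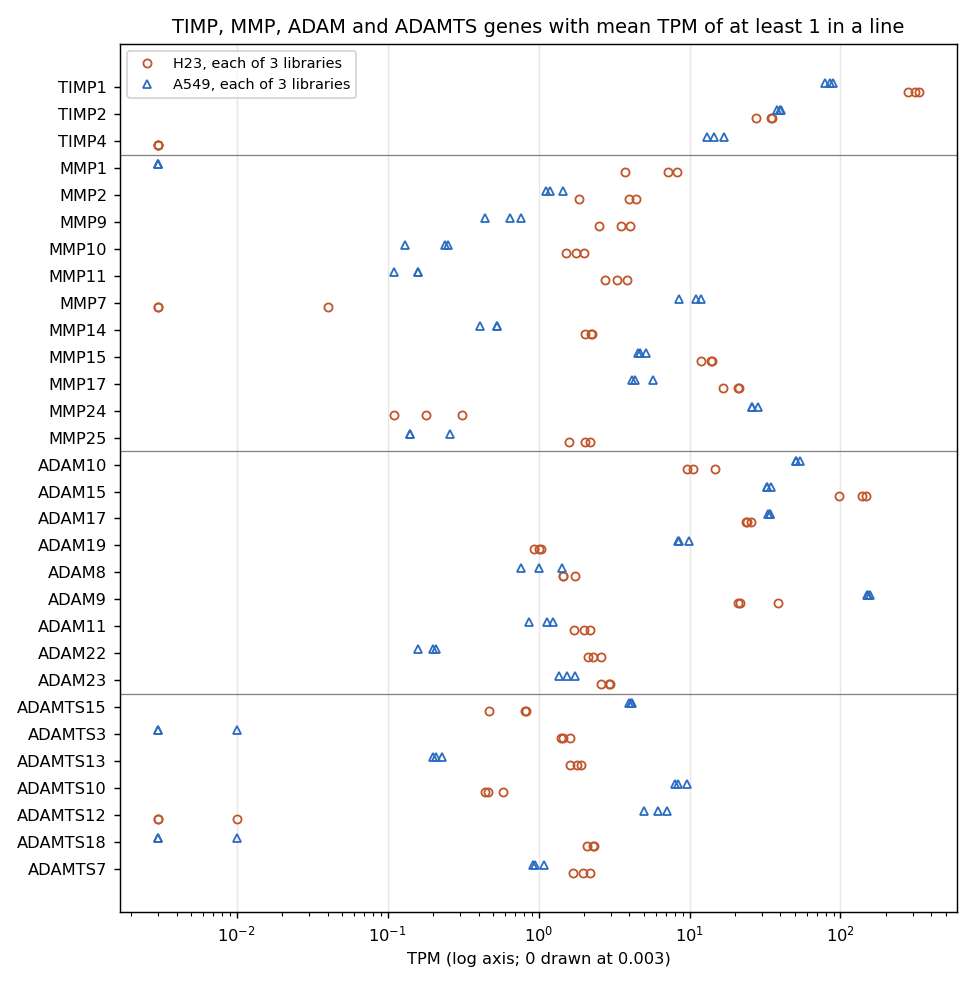
TPM in each library of the members averaging at least 1 TPM in a line, on a logarithmic axis with 0 drawn at the left edge. Circles are H23 libraries and triangles A549 libraries. TIMP1 and ADAM15 led in H23, while ADAM9 led in A549 and TIMP4 was listed at 0 in every H23 library.

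Of the 69 members, 42 passed the filter on low counts and were tested with edgeR's quasi-likelihood test and Benjamini-Hochberg adjustment over 15426 genes. An adjusted p under 0.05 was reached by 37 of these 42 (88.1%), beside 77.2% of all tested genes. In A549, 16 were higher (37.6% of all tested genes were), and in H23, 21 were higher (39.6% of all). At least 2-fold differences were found for 33 of the 42, 15 in A549 and 18 in H23, where 50.1% of all tested genes had them. The values of the lines did not overlap for 38 of the 42, against 82.1% of all tested genes. The median log2 fold of the 42 was -0.38, beside -0.03 over all genes. Most genes differed between these lines, so the counts are read against those shares. Members that passed the filter only through the line where they are high had to differ. For such members an adjusted p or a lack of overlap adds no support. ADAM12, ADAM32, ADAMTS8, ADAMTS12, ADAMTS16, MMP7, MMP24, MMP28 and TIMP4 passed the filter through A549 alone. ADAM33, ADAMTS1, ADAMTS3, ADAMTS9, ADAMTS14, ADAMTS18, MMP1, MMP10, MMP11 and MMP16 passed it through H23 alone. With 3 cultures a line, the smallest p of an exact permutation test is 0.1, and calls therefore rest on the edgeR model.

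**Figure D2:**
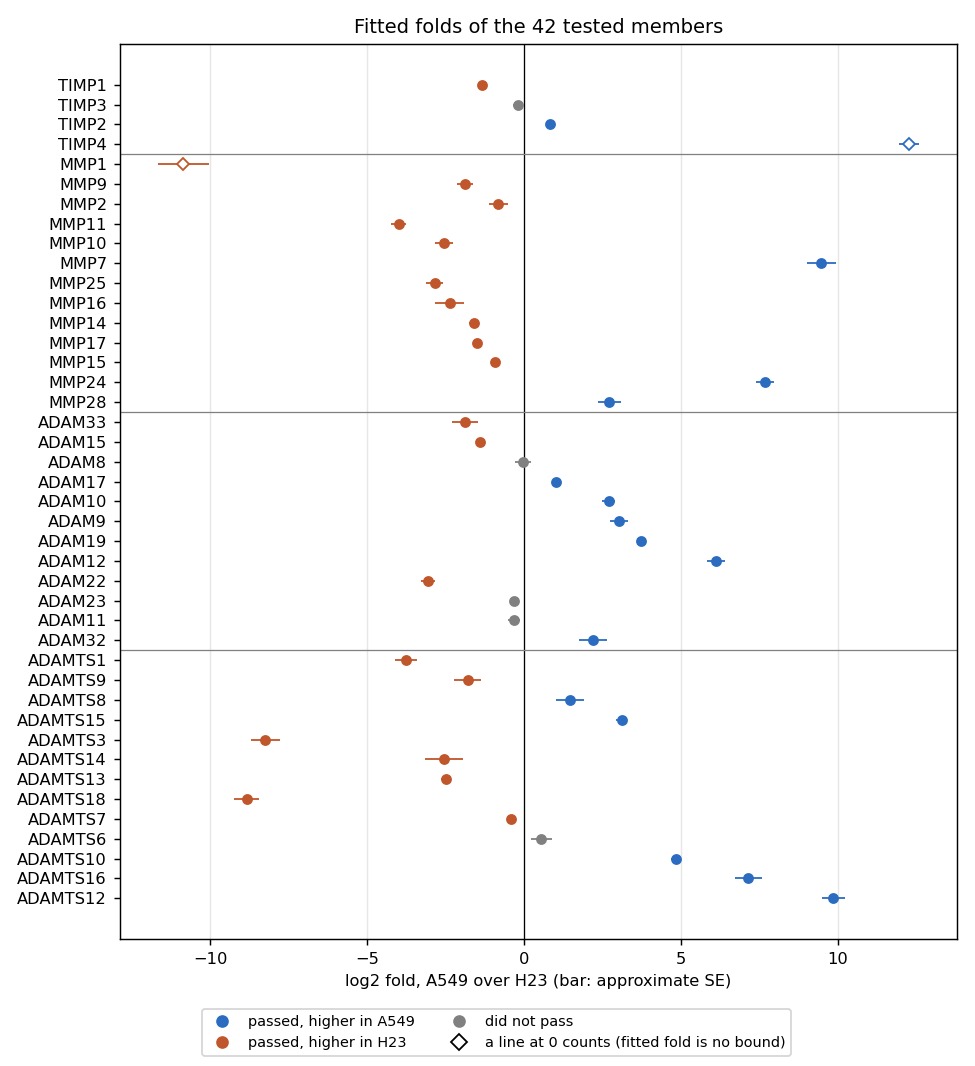
Log2 folds of A549 over H23 for the 42 tested members, ordered by role, with bars for the approximate standard error. Of the 13 MMPs 10 lie left of 0, the side higher in H23, and open diamonds mark MMP1 and TIMP4, whose fitted fold against a line at 0 counts is no bound.

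The inhibitors changed in make-up. TIMP1, a secreted inhibitor of most MMPs, was at 333, 312 and 278 TPM in the H23 libraries and at 84.8, 79.4 and 88.6 TPM in the A549 libraries. It was the most abundant member in H23, and every H23 library lay above every A549 library. By counts it was lower in A549 with a log2 fold of -1.34 (SE 0.12, edgeR adjusted p = 4.62e-05). TIMP4, the inhibitor best known from heart, had 0 counts in all 3 H23 libraries and 18.1, 20.4 and 22.3 CPM in A549. That is at least 744-fold higher in A549, taking 3 counts over the H23 group as the floor. TIMP4 passed the filter through A549 alone and had to differ, so no p is given for it. TIMP2, which also takes part in the activation of MMP2 by MMP14, was at 65.7, 75.5 and 76.0 CPM in H23 and 131, 127 and 126 CPM in A549. The lines did not overlap and the log2 fold was 0.83 (SE 0.09, edgeR adjusted p = 0.000125), but on log2(TPM + 1), limma's adjusted p was 0.0597. TIMP3, which is bound to the matrix and inhibits ADAM17 as well, was at 1.74, 1.90 and 1.95 CPM in H23 and 1.54, 1.72 and 1.64 CPM in A549. Its log2 fold, -0.19, did not pass (edgeR adjusted p = 0.31). With the length trend removed its adjusted p was 0.0119 and its log2 fold -0.63.

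TIMP1, TIMP3 and TIMP4 lie within the synapsin genes SYN1, SYN3 and SYN2, on the opposite strand. SYN2 had 403 counts in H23 and 20 in A549, the reverse of TIMP4, and SYN1 had 124 and 3. The strand setting of the counting is not given in the sources used here, and the part of these overlapping genes was not tested.

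Within each library, TIMP1 made up 90.2% ± 1.82 (SD, n = 3) of the TPM of the 4 TIMPs in H23 and 60.8% ± 0.777 (SD, n = 3) in A549. TIMP2 went from 9.62% ± 1.79 (SD, n = 3) to 28.3% ± 0.670 (SD, n = 3), and TIMP4 from 0% to 10.7% ± 1.11 (SD, n = 3). The summed TPM of the TIMPs was 1.28 ± 0.190 (SD, n = 3) times that of all proteases of the family in H23 and 0.386 ± 0.00959 (SD, n = 3) times in A549. Over MMPs alone the ratio was 6.13 ± 1.41 (SD, n = 3) in H23 and 2.72 ± 0.0640 (SD, n = 3) in A549. These ratios are taken within a library, so the scaling of TPM by short genes cancels, and the values of the lines did not overlap in any of them.

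Of the 13 tested MMPs, 10 were higher in H23, 3 were higher in A549 and 0 failed to pass. Of all tested genes, 39.6% were higher in H23, 37.6% were higher in A549 and 77.2% passed. The 3 MMPs higher in A549 were MMP7, MMP24 and MMP28. Among collagenases, which open fibrillar collagen, MMP1 was at 4.78, 9.66 and 8.40 CPM in H23, with 827 counts in all, and had 0 counts in A549. Against the floor, H23 was at least 181-fold higher. MMP1 passed the filter through H23 alone and had to differ, so no p is given for it. MMP8 had 1 count over the 6 libraries and MMP13 had 0.

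Both gelatinases, which cut denatured collagen and basement membrane collagen, were higher in H23, with unequal margins. MMP9 was at 3.70, 4.78 and 5.46 CPM in H23 and 0.914, 1.36 and 1.51 CPM in A549. The lines did not overlap, and the log2 fold was -1.88 (SE 0.25, edgeR adjusted p = 0.000367). MMP2 was at 3.86, 7.45 and 8.52 CPM in H23 and 3.78, 3.32 and 4.18 CPM in A549. Its lines overlapped through H23 replicate 1, and the log2 fold of -0.81 (SE 0.30) had an edgeR adjusted p of 0.0409. Leaving out H23 replicate 2 gave an adjusted p of 0.106, leaving out H23 replicate 3 gave 0.128, and leaving out A549 replicates 1, 2 or 3 gave 0.101, 0.124 and 0.0778.

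The stromelysins cut a broad range of matrix proteins, and MMP11 is grouped with them by sequence. MMP11 was at 3.96, 5.11 and 4.38 CPM in H23 and 0.332, 0.2 and 0.302 CPM in A549 (log2 fold -3.995, SE 0.24). MMP10 was at 1.90, 1.504 and 1.98 CPM in H23 and 0.374, 0.2 and 0.345 CPM in A549 (log2 fold -2.55). For both genes every H23 library lay above every A549 library. Both passed the filter through H23 alone, so no p is given and the lack of overlap adds no support. MMP3 was below the filter, with 10 counts in H23 and 0 in A549.

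MMP7, or matrilysin, is a small MMP made by epithelia, and it went the other way. It had 1 count over the H23 libraries and was at 10.8, 10.0 and 7.24 CPM in A549. The ratio of A549 to H23 counts per depth was 1034 with a 95% counting interval of 185 to 40905. MMP7 passed the filter through A549 alone and had to differ, so no p is given for it. Its single H23 count came from replicate 1, and without that library the fitted log2 fold went from 9.47 to 11.08.

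MMP7, MMP10 and MMP1 belong to a row of 9 MMP genes on chromosome 11. In the order of the chromosome these are MMP7, MMP20, MMP27, MMP8, MMP10, MMP1, MMP3, MMP12 and MMP13. MMP7 at one end was high in A549, and MMP10 and MMP1, which are neighbours in this row, were high in H23. The other 6 genes had between 0 and 10 counts in either line.

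**Figure D3:**
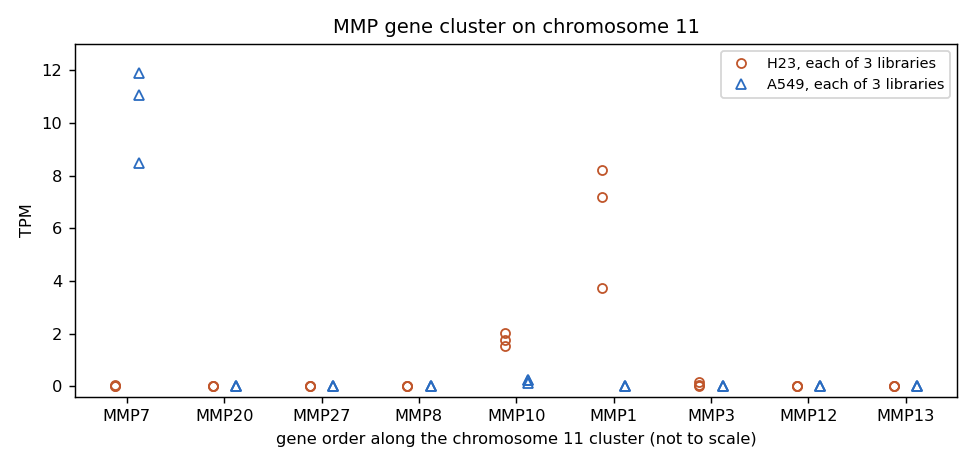
TPM in each library (circles H23, triangles A549) of the 9 MMP genes of the chromosome 11 cluster, in chromosomal order and not to scale. MMP7 stands out in A549 at a mean of 10.5 TPM, MMP10 and MMP1 stand out in H23 at means of 1.76 and 6.38 TPM, and the other 6 lie at or near 0.

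All 6 membrane-type MMPs were tested, and 5 were higher in H23, as were 39.6% of all tested genes. MMP15 was at 32.9, 35.2 and 35.6 CPM in H23 and 18.2, 17.8 and 19.0 CPM in A549 (log2 fold -0.91, SE 0.09, edgeR adjusted p = 7.00e-05). MMP17, which is anchored to the membrane by a lipid, was at 25.3, 29.8 and 29.3 CPM in H23 and 9.31, 8.95 and 11.6 CPM in A549 (log2 fold -1.50, SE 0.14). Neither gene overlapped between the lines. By TPM these were the 2 most abundant MMPs in H23, at 13.2 ± 1.23 (SD, n = 3) for MMP15 and 19.7 ± 2.69 (SD, n = 3) for MMP17. MMP14, the activator of MMP2, was at 4.76, 4.78 and 4.83 CPM in H23 and 1.33, 1.76 and 1.64 CPM in A549 (log2 fold -1.60, SE 0.16, edgeR adjusted p = 8.53e-05). MMP25, which is also lipid-anchored, and MMP16 had log2 folds of -2.84 and -2.37, and neither overlapped between lines.

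MMP24 was the exception among the membrane types. It was at 0.291, 0.802 and 0.471 CPM in H23 and 102, 105 and 107 CPM in A549 (log2 fold 7.68, SE 0.28). MMP24 passed the filter through A549 alone, so no p is given for it. With 26.8 ± 1.47 TPM (SD, n = 3) it was the most abundant MMP in A549, and it took 7.46% of the protease TPM there against 0.0728% in H23. The gene overlaps MMP24OS on the opposite strand, which had 3122 counts in H23 and 872 in A549, the reverse of MMP24. MMP28, or epilysin, was at 0.211, 0.0668 and 0.259 CPM in H23 and 1.12, 1.36 and 1.29 CPM in A549 (log2 fold 2.72). MMP28 also passed the filter through A549 alone, so no p is given for it. It overlaps TAF15 on the opposite strand, with 27404 counts in H23 and 1984 in A549, again the reverse.

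The ADAMs held most of the protease RNA in both lines, and its leading member differed. ADAM9, ADAM10, ADAM15 and ADAM17 together made up 71.1% ± 0.975 (SD, n = 3) of the protease TPM in H23 and 75.9% ± 0.639 (SD, n = 3) in A549. ADAM15 alone made up 47.2% ± 6.19 (SD, n = 3) in H23 and 9.27% ± 0.0591 (SD, n = 3) in A549. ADAM9 made up 10.3% ± 4.90 (SD, n = 3) in H23 and 42.7% ± 0.405 (SD, n = 3) in A549. The spread of ADAM9 in H23 came from replicate 1 at 16.0%, with the other H23 libraries at 7.52% and 7.51%.

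**Figure D4:**
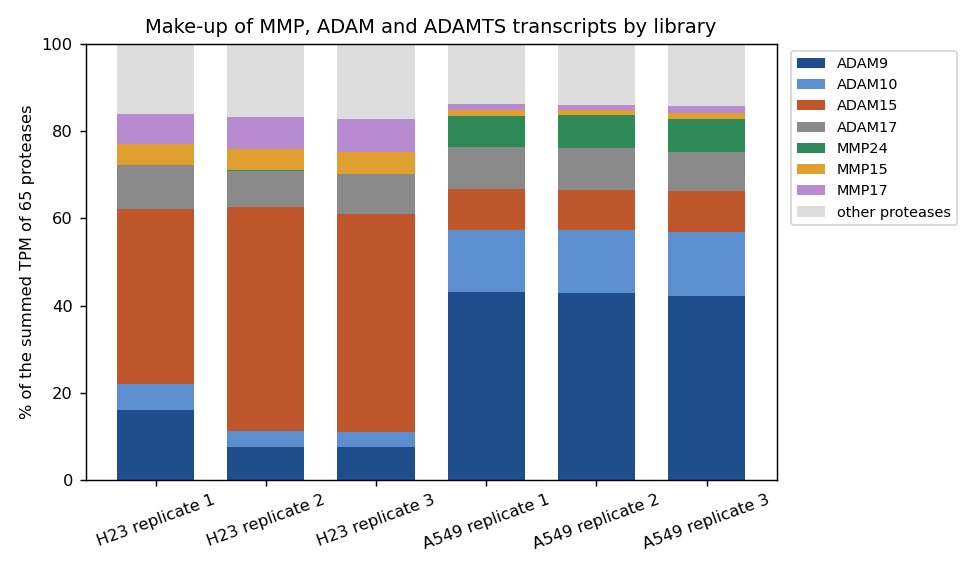
Stacked bars of the summed TPM of the 65 proteases in each library, in percent, divided among 7 members and all others. ADAM15 is the largest share in the 3 H23 libraries at 40.1% to 51.5%, and ADAM9 is the largest in the 3 A549 libraries at 42.2% to 43.0%.

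ADAM15, a membrane protease that also binds integrins, was at 178, 246 and 232 CPM in H23 and 81.6, 82.6 and 82.3 CPM in A549. Every H23 library lay above every A549 library, with a log2 fold of -1.41 (SE 0.13, edgeR adjusted p = 6.57e-05). ADAM9, a broadly expressed sheddase, was at 104, 52.6 and 51.0 CPM in H23 and 570, 571 and 555 CPM in A549. Its log2 fold was 3.03 (SE 0.29, edgeR adjusted p = 8.01e-05), and 3.44 without H23 replicate 1.

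ADAM10 cleaves Notch receptors, cadherins and EGF, and it was at 48.5, 32.1 and 29.02 CPM in H23 and 236, 240 and 238 CPM in A549. The lines were far apart, with a log2 fold of 2.70 (SE 0.20, edgeR adjusted p = 2.27e-05). ADAM17, which releases TNF and several EGF receptor ligands, was at 69.2, 62.1 and 66.3 CPM in H23 and 137, 139 and 126 CPM in A549. The log2 fold was 1.03 (SE 0.08, edgeR adjusted p = 3.55e-05), while its share of protease TPM, 9.11% in H23 and 9.44% in A549, overlapped between the lines. ADAM19, a sheddase of neuregulin, was at 4.04, 4.08 and 4.001 CPM in H23 and 51.7, 51.4 and 56.9 CPM in A549 (log2 fold 3.72, SE 0.10, edgeR adjusted p = 3.24e-07). In all of these sheddases every A549 library lay above every H23 library. ADAM12, a member of placenta and muscle that is active as a protease, was at 0.0334 to 0.106 CPM in H23 and 4.51 to 4.83 CPM in A549 (log2 fold 6.12). It passed the filter through A549 alone and had to differ.

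Of the 8 tested ADAMs with a catalytic site, 5 were higher in A549 and 2, ADAM15 and ADAM33, in H23, where ADAM33 had a log2 fold of -1.88. Over all tested genes these shares were 37.6% and 39.6%. ADAM8 did not pass (log2 fold -0.03, edgeR adjusted p = 0.903), at 2.80 to 3.73 CPM in H23 and 2.20 to 3.97 CPM in A549. Of the 4 tested ADAMs without one, ADAM22 was at 8.42 to 12.2 CPM in H23 and 0.992 to 1.52 CPM in A549 (log2 fold -3.06, edgeR adjusted p = 1.93e-05). ADAM22 and ADAM23 are known as receptors for LGI proteins in the nervous system. ADAM32 had a log2 fold of 2.20, and of 2.91 without H23 replicate 1. ADAM11 and ADAM23 did not pass, at log2 folds of -0.32 and -0.33, with edgeR adjusted p of 0.163 and 0.0529, and ADAM23 passed in 8 of its alternatives. Among these were H23 replicate 1 or 2 left out (edgeR adjusted p = 0.0195 and 0.0319), upper quartile factors (0.0139) and the length trend removed (0.000521), and over all alternatives its adjusted p ran from 0.000521 to 0.209. ADAM11 passed with limma on both TPM scales and with edgeR after removal of the length trend, with adjusted p from 0.00359 to 0.0190.

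ADAM15 also differed in its transcripts. Of the 30 members with several RefSeq transcripts, 11 could be tested for usage with edgeR's gene-level test, and 1 passed (25.8% of all tested genes did). The transcript NM_003815, of 2834 bases, took 79.5%, 80.5% and 77.9% of ADAM15 in H23 and 39.7%, 47.7% and 36.0% in A549. NM_207191, of 2764 bases, took 1.29%, 1.26% and 0.730% in H23 and 42.2%, 37.8% and 47.1% in A549. The shares of the lines did not overlap for either transcript (edgeR adjusted p = 0.000122). Without H23 replicate 1, 4 members passed, ADAM8, ADAM9, ADAM15 and ADAM22. RSEM divides reads between transcripts that share most of their sequence, and that division carries an error of its own.

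**Figure D5:**
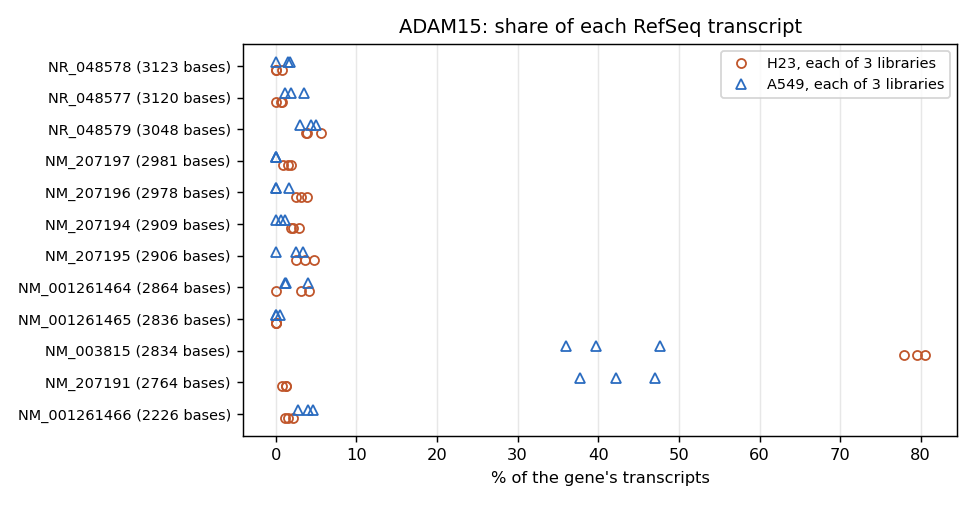
Share of ADAM15 taken by each of its RefSeq transcripts, listed with their lengths, in percent of the gene, with circles for H23 and triangles for A549 libraries. NM_207191 lies at 0.730% to 1.29% in H23 and at 37.8% to 47.1% in A549, while NM_003815 lies at 77.9% to 80.5% in H23 and at 36.0% to 47.7% in A549.

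The ADAMTSs had little RNA in both lines, 3.96% ± 0.129 (SD, n = 3) of the protease TPM in H23 and 5.94% ± 0.383 (SD, n = 3) in A549, but several were close to absent from one line. Of 13 tested, 5 were higher in A549 and 7 in H23, beside 37.6% and 39.6% of all tested genes. The procollagen N-proteinases, which trim the ends of fibrillar procollagens, were higher in H23. ADAMTS3 was at 6.23, 4.91 and 5.13 CPM in H23 and had 1 count in A549, a ratio of 394 with a 95% counting interval of 70.5 to 15589. ADAMTS14 was at 0.588 to 0.713 CPM in H23 and 0 to 0.216 CPM in A549. Its log2 fold, -2.54, moved to -1.93 without A549 replicate 2 and to -3.34 without A549 replicate 3. ADAMTS2 was below the filter, with 58 counts in H23 and 0 in A549, so that H23 was at least 12.7-fold higher.

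Members that cut proteoglycans such as aggrecan and versican were divided between the lines. ADAMTS1 was at 2.14, 2.74 and 2.64 CPM in H23 and 0.291, 0.160 and 0.0862 CPM in A549 (log2 fold -3.77, SE 0.35). It passed the filter through H23 alone, so no p is given for it. ADAMTS9 was lower in A549 as well, with a log2 fold of -1.80 on 49 and 9 counts. ADAMTS15 was at 1.77, 2.81 and 2.75 CPM in H23 and 21.4, 21.0 and 20.7 CPM in A549 (log2 fold 3.11, SE 0.19, edgeR adjusted p = 8.39e-06). ADAMTS8 was kept by the filter through A549 alone, so its adjusted p adds no support. It passed the test at a log2 fold of 1.47 (edgeR adjusted p = 0.0188) on 44 and 80 counts. It no longer passed without H23 replicate 2 or 3 or A549 replicate 2 or 3, with adjusted p of 0.0528, 0.0630, 0.0564 and 0.0667, and its log2 fold was 2.06 without H23 replicate 1. ADAMTS4 had 29 counts in H23 and 0 in A549, so that H23 was at least 6.34-fold higher.

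Among the remaining ADAMTSs, ADAMTS12 had 2 counts in H23 and was at 19.5, 20.3 and 21.5 CPM in A549, a ratio of 1126 with a 95% counting interval of 311 to 9310. ADAMTS16 had 2 counts in H23 and was at 3.62, 2.68 and 3.19 CPM in A549, a ratio of 174 (47.6 to 1444). ADAMTS10, a fibrillin-binding member, was at 0.898, 1.303 and 1.15 CPM in H23 and 30.6, 30.5 and 34.2 CPM in A549 (log2 fold 4.83, SE 0.16, edgeR adjusted p = 7.90e-07). All 3 of these were far higher in A549 and overlapped in no library. ADAMTS18 went the other way. It was at 8.16, 8.29 and 8.12 CPM in H23 and had 1 count in A549, a ratio of 591 (106 to 23384). The single count of ADAMTS3 and of ADAMTS18 came from A549 replicate 3, and without it the fitted log2 folds went from -8.24 to -10.43 and from -8.83 to -11.02. For ADAMTS12 it went from 9.85 to 12.16 without H23 replicate 3. ADAMTS13, which cuts von Willebrand factor, was at 4.25, 4.44 and 4.78 CPM in H23 and 0.831, 0.759 and 0.819 CPM in A549 (log2 fold -2.48, SE 0.16, edgeR adjusted p = 1.06e-05). ADAMTS7 had a log2 fold of -0.43 (edgeR adjusted p = 0.0162), and adjusted p of 0.0726 and 0.0798 without A549 replicate 1 or 2. ADAMTS6 did not pass, and without H23 replicate 1 its log2 fold went from 0.55 to 0.93 (edgeR adjusted p = 0.00293).

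The 16 untested members with at least 1 count were all low, at no more than 0.502 CPM on average in either line. ADAM21 had 22 counts in H23 and 0 in A549, and H23 was thus at least 4.81-fold higher. ADAMTS17 had 42 and 3 counts, a ratio of 9.18 with a 95% counting interval of 2.93 to 46.3. MMP23B had 36 and 9 counts, and MMP23A, its near-identical pseudogene copy, had 18 and 4, so their reads cannot be assigned with certainty.

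Genes that act with the family were read from lists of its regulators, activators and substrates. Of all tested genes, 37.6% were higher in A549 and 39.6% in H23, and the list counts are read against these shares. Of 22 cell surface regulators, all tested, 11 were higher in A549 and 8 in H23, with a median log2 fold of 0.10, beside -0.03 over all genes. RECK, a membrane-anchored inhibitor of MMPs, was at 36.1, 38.0 and 39.0 CPM in H23 and 10.1, 8.95 and 8.97 CPM in A549 (log2 fold -2.01, edgeR adjusted p = 3.54e-06). BSG, also called EMMPRIN, an inducer of MMPs, had a log2 fold of -2.19. The 6 tetraspanins that escort ADAM10 were divided. The log2 folds of TSPAN14, TSPAN15 and TSPAN17 were 2.02, 2.34 and 0.33, all higher in A549, and those of TSPAN33 and TSPAN5 were -1.43 and -0.46, both higher in H23. TSPAN10 did not pass, at -0.13. Without H23 replicate 1, 11 of the 22 regulators were higher in each line and their median was -0.11. On log2(TPM + 1) their median was -0.30, where that of all genes was -0.41, and after rescaling without genes under 300 bases it was 0.155.

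Proprotein convertases remove the prodomains of ADAMs and of membrane-type MMPs. Of the 6 tested, 5 were higher in A549 and 0 in H23 (median log2 fold 1.23), beside 37.6% and 39.6% of all tested genes. FURIN was at 19.5, 29.8 and 28.1 CPM in H23 and 66.2, 63.4 and 70.9 CPM in A549 (log2 fold 1.37, edgeR adjusted p = 0.000254). Without H23 replicate 1, 1 of the convertases was higher in H23. The plasminogen system, whose plasmin can activate pro-MMPs, had 7 of 10 tested genes higher in A549 and 3 higher in H23 (median 2.27). PLAU, the urokinase gene, had a log2 fold of 1.003 and its receptor gene PLAUR one of -1.27. SERPINB2, an inhibitor of urokinase, was at 12.3 to 12.7 CPM in H23 and was at 0 counts in A549, and H23 was thus at least 303-fold higher.

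Of the 4 tested ADAMTS-like genes, which resemble ADAMTSs without the protease part, 1 was higher in A549 and 3 in H23 (median -1.92), with ADAMTSL5 at a log2 fold of -3.98. Of 7 tested genes of other metzincins and inhibitors, 3 were higher in each line (median -0.33). The shares of all tested genes were 37.6% higher in A549 and 39.6% in H23. BMP1, the procollagen C-proteinase, had a log2 fold of 3.10, and TFPI2, a serine protease inhibitor, -4.57.

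Among substrates shed by ADAM10 and ADAM17, 14 of 31 tested were higher in A549 and 12 in H23, beside 37.6% and 39.6% of all tested genes. The Notch ligand gene JAG1 had a log2 fold of 3.95 and EREG, for the EGF receptor ligand epiregulin, 4.09, while the adhesion molecule gene L1CAM had -6.37. The median of this list, 0.13, turned to -0.39 on log2(TPM + 1), where the median of all genes was -0.41. After rescaling without genes under 300 bases it was 0.136, again with 14 and 12 called. With the length trend removed it was -0.03, beside -0.12 over all genes. Of 31 tested matrix substrates, 21 were higher in A549 and 6 in H23 (median 1.81), or 9 in H23 without replicate 1 of that line, where 32 were tested. With the length trend removed, 19 of these substrates were higher in A549 and 9 in H23, and their median was 1.03. COL7A1, for anchoring fibril collagen, had a log2 fold of 6.44, and BGN, for biglycan, had 3393 counts in H23 and 0 in A549, and H23 was thus at least 742-fold higher. Of a list of 15 AP-1, ETS and RUNX factors, 4 were higher in A549 and 8 in H23 (median -0.43), or 11 in H23 without its replicate 1. FOS was at 36.6, 34.6 and 33.5 CPM in H23 and 1.16, 1.08 and 0.948 CPM in A549 (log2 fold -5.03, edgeR adjusted p = 2.74e-07), and FOSL1 and FOSB had log2 folds of -2.63 and -3.19. The AP-1 genes FOSL2 and JUN went the other way, with 0.90 and 0.68, and JUNB and JUND did not pass. The ETS genes were divided too, with ETS2 and ELF3 higher in A549 at 3.14 and 11.06, ETV4, ETV1 and ETS1 higher in H23 at -2.23, -1.20 and -0.43, and ETV5 not passed. RUNX1 and RUNX2 were higher in H23, at -2.09 and -1.56. The part of these genes in the levels of the proteases was not tested.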

How the data were processed

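RNA sequencing of 3 H23 and 3 A549 cultures was analysed from 1 gene table and 1 transcript table per library. The submitters' processing notes list STAR 2.6.0c, RSEM 1.3.0 and hg19, and the annotation release and strand setting are not given in the sources used here. Per the file headers, RSEM gave expected counts, which are estimates that need not be whole and carry no depth scaling. TPM as deposited by the authors is scaled for length and depth. FPKM as deposited by the authors entered no result. The percent values deposited by the authors give a transcript's share of its gene. The deposited lengths, in bases, served for the length trend and for sorting genes by size.

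Expected counts were rounded, filtered with filterByExpr and scaled by TMM factors (0.985 to 1.02) in edgeR 4.0.16 under R 4.3.3. The lines were compared with the robust quasi-likelihood F test over 15426 genes and usage with diffSpliceDGE over 7539 genes, with Benjamini-Hochberg adjustment and a threshold of 0.05. Standard errors are approximate, taken from the log2 fold and F. The common biological coefficient of variation was 0.168. Where a line had 0 counts, the fold was taken against 3 counts over its group. Where it had 1 to 3, the ratio has a 95% counting interval. Intervals and floors cover counting error only. Genes overlapping on the genome were found in GENCODE on GRCh38, promoters in RefSeq's GRCh38.p14.

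Alternatives used DESeq2 1.42.0, limma 3.58.1 on log2(TPM + 1) and log2(TPM + 0.1), other factors and filters, a length trend, a replicate block and each library left out. TPM rescaled without genes under 300 bases (for the test and for members at 1 TPM or more), counts without those genes and the list counts without H23 replicate 1 were chosen after seeing the data. Tests were tested on simulated data. Members named were those averaging 5 TPM or more in a line, the 5 per direction with the largest fold at 0.5 TPM or more, the TIMPs, and MMP1, MMP2, MMP9, MMP14, ADAM10 and ADAM17, with short values for the others. Up to 3 genes per direction came from each pathway list, with RECK, BSG, FURIN, PLAU and PLAUR. Some genes that the rule takes are not reported here. For usage, the rule took members past the test whose share moved by 20 or more percentage points, with 1 TPM or more in both lines. The members and all lists were chosen with earlier results of these data known. SYN1, SYN2, MMP24OS, TAF15, and the genes of the tetraspanin, AP-1, ETS, RUNX and marker lists outside the rule were named after their values were seen.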

Additional observations from a re-analysis of the deposited data

How the results depend on the processing

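The count of 37 members past the test ran from 33 to 42 over all alternatives, with 14 to 17 higher in A549 and 18 to 26 higher in H23. With each library left out in turn it ran from 34 to 39, with 15 to 17 and 19 to 23. On log2(TPM + 1), 14 were higher in A549 and 24 in H23, against 16 and 21 by counts and 16 and 19 after rescaling without genes under 300 bases. With the replicate number as a block, 37 members passed, 16 and 21 by direction, and 1 passed the usage test (ADAM15, adjusted p = 0.0157). The numbers do not pair the samples, since same-numbered libraries had correlations of deviations of 0.025, -0.039 and 0.0544. Usage calls ran from 1 to 4 with libraries left out, and were 4 without H23 replicate 1. Of 749 alternative values for the 42 tested members, 713 kept direction and call, 17 lost the call, 15 gained it and 4 changed sign. Those 4 were ADAM8, at 0.11 without H23 replicate 1, 0.17 without A549 replicate 1 and 0.0015 without A549 replicate 2 (its range with libraries left out was -0.24 to 0.17), and ADAMTS6 at -0.018 with the length trend removed, none of them called in either setting. For 32 of the 42 members no alternative changed the call or the sign. ADAMTS9 and MMP2 also lost the call after the rescaling, at adjusted p of 0.0796 and 0.0603. The cause of these changes was not tested. Log2(TPM + 1) shrinks the folds of low members, for example from 6.12 to 0.81 for ADAM12. Depth limits members with few counts, whose fitted folds depend on single reads.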
